A study of Mus musculus with 29 samples.

Results

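MHC class I and immunoproteasome genes were followed as a set of 10 in mouse microglia: the transactivator gene Nlrc5, the heavy chain genes H2-K1 and H2-D1, the light chain gene B2m, the peptide transport and loading genes Tap1, Tap2 and Tapbp, and the inducible proteasome subunit genes Psmb8, Psmb9 and Psmb10. Members were taken by their symbol from a table of 36982 genes. All 10 passed the filter on low counts, which kept 16632 genes. Psmb10 and Nlrc5 are listed on chromosome 8, B2m on chromosome 2 and the other 7 on chromosome 17, which carries the mouse MHC.

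The mice were male C57BL/6J, 10 weeks old at a first intraperitoneal injection and 15 weeks old when a second one followed, 5 weeks after the first. Brains were taken 3 h later. An injection held either phosphate-buffered saline (P) or lipopolysaccharide from Escherichia coli at 1 mg/kg (L, LPS), a bacterial cell wall component that activates Toll-like receptor 4. BLZ945 (B), an inhibitor of the CSF1 receptor that microglia need to survive, was given by gavage at 169 mg/kg per day for 5 days starting 1 week after the first injection, and the mice without B in their group name received vehicle. Microglia thus repopulated the brain before the second injection in the B groups. PP (n = 5) had saline, vehicle and saline, PBP (n = 5) saline, BLZ945 and saline, PL (n = 4) saline, vehicle and LPS, PBL (n = 5) saline, BLZ945 and LPS, LL (n = 5) LPS, vehicle and LPS, and LBL (n = 5) LPS, BLZ945 and LPS. The labels give no allele beyond the strain. Bulk RNA sequencing was done on sorted live cells that were high for CD11b, intermediate for CD45 and negative for Ly6C.

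Library totals lay between 5670450 and 12671476 counts, and RNA quality numbers between 6.5 (PL replicate 3) and 9.1. PBL had the lowest mean RNA quality number, 7.64 (7.4 to 7.9), against 8.6 in PBP, where replicates 1 to 4 were at 8.8 to 9.0 and replicate 5 at 7.4, and its part in the PBL values was not tested. All PP and PL libraries and PBP replicates 1 to 4 were sorted on one instrument (Astrios), and PBP replicate 5 and all PBL, LL and LBL libraries on the other (XDP). Comparisons of PL with PP, LBL with PBL and LBL with LL therefore stayed within a sorter. In the comparisons of PBL with PBP, LL with PL, PBL with PL, LL with PP and LBL with PBP, sorter and group cannot be told apart beyond what PBP replicate 5 allows. Sorting days also differed between all groups compared, except that 2 PL libraries shared the day of PP, LL and LBL shared 2 days, and PBP replicate 5 shared the day of PBL. Microglial identity genes were present in every group (10 of 10 markers). Their summed level, in CPM, the library's counts scaled to a common total, was 61411 to 73362 for PP and 50357 to 69531 for PBP. LPS groups had 47280 to 54770 (PL), 33980 to 48424 (PBL), 42152 to 52870 (LL) and 41512 to 47196 (LBL). It was lower in every PL, PBL, LL and LBL library than in every PP library, and its part in the changes below was not tested.

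MHC class I molecules display peptides from inside the cell to CD8 T cells, and consist of a heavy chain and beta 2 microglobulin. The peptides are cut by the proteasome, whose inducible subunits form the immunoproteasome, carried into the endoplasmic reticulum by the TAP transporter and loaded with the help of tapasin. NLRC5 activates class I heavy chain genes, B2m, Tap1 and Psmb9 together with factors bound at their promoters, and interferons and NF-kB also act on class I genes. Microglia are known to raise antigen presentation genes in infection and inflammation.

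The 10 genes did not change in a single direction 3 h after LPS. In mice with neither earlier LPS nor depletion (PL against PP), Nlrc5, H2-K1 and Tap1 rose, a count of 3 of 10 where 14.2% of all tested genes rose, and Psmb8 and Psmb9 fell, 2 of 10 where 11.9% of all tested genes fell. In repopulated microglia (PBL against PBP) the same 3 members rose (21.5% of all tested genes) and 5 fell, Tap2, Tapbp, Psmb8, Psmb9 and Psmb10 (21.5% of all tested genes). The median log2 fold change over the 10 members was 0.01 in PL against PP and -0.13 in PBL against PBP, against 0.00 and 0.01 over all genes tested. Calls are at an adjusted p under 0.05 in edgeR's quasi-likelihood test with Benjamini-Hochberg adjustment over all 16632 genes, and a p-value speaks only of the spread among the libraries of these groups, since the labels do not say which animals they came from. In bulk RNA, fewer cells of a type and less RNA per cell cannot be told apart.

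After LPS at the second injection, 4 members were lower in mice with LPS 5 weeks earlier than in mice without (LL against PL): H2-K1, H2-D1, B2m and Tap1. None was higher, where 2.03% of all tested genes were lower and 0.752% higher. In the repopulated groups (LBL against PBL), H2-K1, Tap1 and Nlrc5 were lower, 3 of 10 where 4% of all tested genes were lower, and none was higher (2.74% of all tested genes). PL and PBL enter these comparisons as well as the first LPS responses above, so the values of the comparisons are not independent. At rest, repopulated microglia had no member called (PBP against PP, 0.529% of all tested genes in either direction), although 3 members had an unadjusted p under 0.05, and DESeq2 called 2 of them, H2-K1 and H2-D1, and limma none. With LPS, repopulated microglia had H2-K1, Tap1 and Nlrc5 higher (11% of all tested genes) and Psmb8 and Psmb10 lower (11.1%) in PBL against PL. With 2 LPS injections, H2-K1, H2-D1 and Tap1 were higher in LBL against LL (0.487% of all tested genes) and none lower (0.722%).

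Sorter bears on several of these counts. With sorter in the fit, none of the 10 was called in LL against PL or in PBL against PL. In PBL against PBP, Nlrc5 (2.43), H2-K1 and Tap1 were still called, the 5 lower members were not, and H2-D1 (0.48, adjusted p = 0.027) and B2m (0.47, adjusted p = 0.0369) were called as higher. PL against PP, LBL against PBL and LBL against LL each lie within 1 sorter. They had 7, 3 and 4 members called with sorter in the fit, B2m and Tapbp being added in PL against PP and Psmb10 in LBL against LL.

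**Figure D1:**
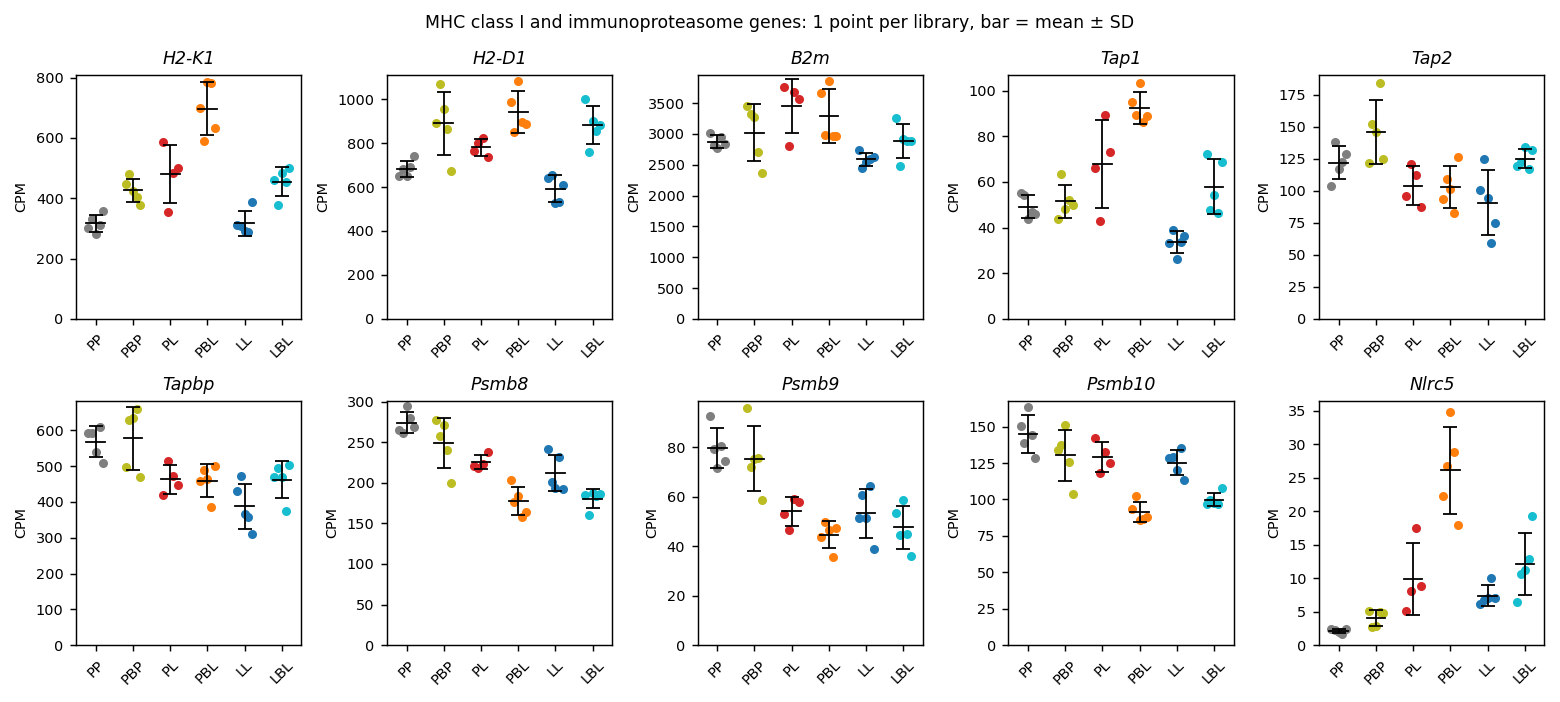
Levels in CPM (y axis, from 0) of the 10 genes in each of the 29 libraries, by group (x axis), with the mean ± SD of each group as bars. Nlrc5, H2-K1 and Tap1 are highest in PBL, while Psmb8, Psmb9 and Psmb10 are highest in PP and lowest in PBL.

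**Figure D2:**
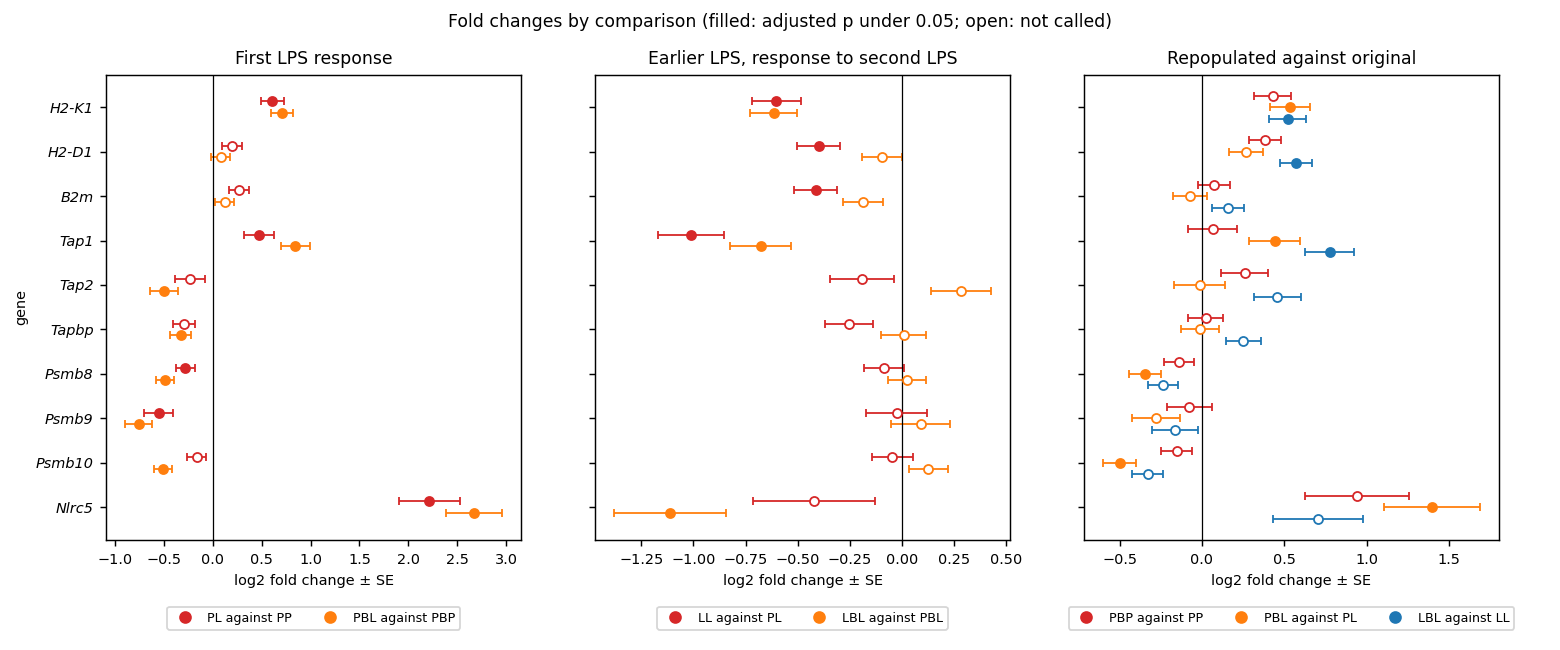
Log2 fold changes (x axis) with their standard errors for each gene (y axis), for the first LPS response, the effect of LPS 5 weeks earlier and the effect of repopulation; filled points were called and open points were not. Nlrc5, H2-K1 and Tap1 lie to the right of 0 and the proteasome subunits to the left in both first LPS responses.

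Nlrc5, the transactivator of the class I genes, had the largest range of the 10 members, 12.3-fold between the lowest and the highest group mean, and the lowest level. Per kilobase of exon it averaged 0.25 ± 0.037 CPM (SD, n = 5) for PP and 3.08 ± 0.761 CPM in PBL (n = 5), where B2m was at 3345 ± 117 and 3819.9 ± 509.5 CPM. Exon lengths are those of GENCODE M21, an annotation of another build than the GRCm39 of the counts. In PP the other members lay between, from 8.98 CPM per kilobase for Tap1 and 21.8 for Psmb9 to 157 for Tapbp and 265 for H2-D1. The counts behind the Nlrc5 values were 14 to 205 reads per library.

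Nlrc5 was at 2.35, 2.29, 1.90, 1.68 and 2.39 CPM in PP and at 5.10, 8.02, 17.5 and 8.87 CPM in PL. All PL libraries were above all PP libraries, and PL replicate 3, the library with the lowest RNA quality number, was the highest. The log2 fold change of PL against PP was 2.22 (SE 0.32, adjusted p = 1.06e-06), and 1.76 without PL replicate 3. In repopulated microglia the values were 5.08, 2.70, 2.82, 4.92 and 4.82 CPM in PBP and 22.2, 26.8, 34.9, 28.9 and 17.9 CPM in PBL. The groups did not overlap, and the log2 fold change was 2.67 (SE 0.29, adjusted p = 2.5e-09). The responses in repopulated and original microglia differed by 0.45 (SE 0.43, adjusted p = 0.682), a difference that was not called.

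All PBP libraries were also above all PP libraries for Nlrc5, with a difference of 0.94 (SE 0.31, adjusted p = 0.185) that was not called. PBL was above PL without overlap (1.40, SE 0.29, adjusted p = 0.00158). With sorter in the fit, PBL stayed above PL but was no longer called (adjusted p = 0.872).

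With 2 LPS injections, Nlrc5 was at 6.13, 6.74, 6.98, 10.1 and 7.12 CPM in LL and at 6.47, 10.6, 11.2, 12.9 and 19.2 CPM in LBL. The LL libraries lay within the range of PL, and all LBL libraries except replicate 5 were below every PBL library. LBL differed from PBL by -1.11 (SE 0.27, adjusted p = 0.00787). LL against PL gave -0.42 (SE 0.29, adjusted p = 0.513), which turned to 0.04 without PL replicate 3. The difference between these 2 effects of earlier LPS was -0.69 (SE 0.40, adjusted p = 0.415) and was not called. Against the saline groups Nlrc5 was still higher after 2 LPS injections, by 1.80 in LL against PP (SE 0.31, adjusted p = 2.51e-05) and by 1.56 in LBL against PBP (SE 0.28, adjusted p = 6.55e-05).

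H2-K1, which encodes a classical class I heavy chain, was at 303, 330.3, 280.2, 309.6 and 358 CPM in PP and at 588, 353, 484 and 499.6 CPM in PL. PL replicate 2, at 353 CPM, was the only PL library within the PP range. On the log2 scale this was a change of 0.61 (SE 0.12, adjusted p = 0.000157). In the repopulated groups H2-K1 was at 448, 479, 422, 403 and 377 CPM in PBP and at 699, 589, 785, 781 and 632 CPM in PBL. The lowest PBL library was above the highest library of each other group, PL replicate 1 included at 588 CPM. PBL against PBP gave 0.71 (SE 0.11, adjusted p = 4.25e-06), and 0.89 with sorter in the fit (adjusted p = 0.0021).

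After 2 LPS injections, H2-K1 was at 310.1, 308, 292, 287 and 389 CPM in LL and at 460.5, 376, 484, 454 and 501 CPM in LBL. LL overlapped PP and lay below 3 of the 4 PL libraries, while every LBL library was below every PBL library. LL against PL gave -0.60 (SE 0.12, adjusted p = 0.00182), and -0.39 with sorter in the fit (adjusted p = 0.475). LBL against PBL, within 1 sorter, gave -0.62 (SE 0.11, adjusted p = 0.000394). The level of H2-K1 in LL differed from that in PP by a log2 interval of -0.23 to 0.24 (95%).

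H2-K1 was higher in repopulated than in vehicle-treated microglia after LPS, by 0.53 in PBL against PL (SE 0.12, adjusted p = 0.00281) and by 0.52 in LBL against LL (SE 0.11, adjusted p = 0.0119). PBP against PP gave 0.43 (SE 0.11, adjusted p = 0.0694), which was not called. With sorter in the fit PBL against PL was 0.75 and not called (adjusted p = 0.678). Without LL replicate 4, the LBL and LL difference was 0.49 with an adjusted p of 0.058. With sorting day in the fit it was 0.47 (adjusted p = 0.0457). All 5 PBP libraries were above all 5 PP libraries.

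H2-D1, the other classical heavy chain gene of this strain, was at 650.5, 684, 652, 692 and 739 CPM in PP, at 763, 801, 824 and 736 CPM in PL, and at 891, 1069, 953, 866 and 674 CPM in PBP. PBP replicate 5, sorted on the other instrument, was the only PBP library within the PP range. The difference of PBP from PP was 0.38 (SE 0.10, adjusted p = 0.0626), and 0.47 without PBP replicate 5 (adjusted p = 0.00613). PL differed from PP by a log2 interval of -0.02 to 0.40 (95%), with an adjusted p of 0.173.

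H2-D1 was at 989, 852, 1084, 894 and 885 CPM in PBL, at 640.0, 656, 529, 529.9 and 607 CPM in LL and at 1002, 761, 898, 857 and 885 CPM in LBL. Every LBL library was above every LL library. That difference, within 1 sorter, was 0.57 on the log2 scale (SE 0.10, adjusted p = 0.00111), and 0.56 with sorting day in the fit. LL was below PL without overlap (-0.40, SE 0.10, adjusted p = 0.0234), but the value was 0.09 with sorter in the fit and the call was lost when any of PL replicates 1, 3 and 4 or LL replicates 3 and 4 was left out. PBL differed from PBP by a log2 interval of -0.12 to 0.28 (95%), or by 0.48 with sorter in the fit.

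B2m, the gene of the light chain shared by all class I molecules, was the most abundant member per length. It was at 3012, 2819.7, 2766, 2949.7 and 2836 CPM in PP and at 3756, 2804, 3677 and 3563 CPM in PL. Of the 4 PL libraries 3 were above every PP library, and the log2 fold change was 0.26 (SE 0.10, adjusted p = 0.0565). It was called by DESeq2 (0.28, adjusted p = 0.0279) and limma (0.26, adjusted p = 0.0442). B2m was at 2738, 2445, 2539.8, 2596 and 2631 CPM in LL, below every PP and PL library. LL against PL gave -0.41 (SE 0.10, adjusted p = 0.0182), but 0.02 with sorter in the fit. The call was also lost when any of PL replicates 1, 3 and 4 was left out (adjusted p up to 0.0905). B2m was at 3446, 3319, 3273, 2700.3 and 2365 CPM in PBP, at 3659, 2975, 3859, 2974 and 2958 CPM in PBL and at 3264, 2472, 2912, 2889.7 and 2892 CPM in LBL. These 3 groups overlapped each other, and B2m was not called in PBL against PBP or LBL against PBL.

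The ratio of H2-K1 to H2-D1 counts was 0.462 ± 0.0235 in PP (SD, n = 5), 0.484 ± 0.0487 in PBP (n = 5), 0.619 ± 0.141 in PL (n = 4), 0.742 ± 0.0744 in PBL (n = 5), 0.537 ± 0.0676 in LL (n = 5) and 0.518 ± 0.0414 in LBL (n = 5). The heavy chain genes are alike in sequence, so reads of one may be counted for the other. Over the longest transcript of each in the GENCODE M21 annotation, no stretch of 100 bases was shared between the 2 genes, and 109 stretches of 50 bases were. With any other gene, H2-D1 shared 4.64% of its stretches of 100 bases, most of them with H2-Q1, and H2-K1 shared none.

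The upstream sequences of the heavy and light chain genes are shown because each of these genes held all of 4 motif types, which no other member with a sequence did. Sequences are from RefSeq (GRCm38.p6), 250 bases up to the annotated start, 5′ to 3′ on the strand of the gene, and 8 of the 10 members matched (Tap2 and Nlrc5 did not). Capitals mark matches, on either strand, to the IRF element AANNGAAA, the kappa B element GGGANNNNCC, the CRE core TGACG or the CCAAT box CCAAT. No 2 of these motifs overlapped each other. H2-K1 lies at chr17:34000348-34000597 on the minus strand, H2-D1 at chr17:35262844-35263093 on the plus strand, and B2m at chr2:122147437-122147686 on the plus strand. RefSeq held 2 entries for H2-K1, and the first listed was used.
H2-K1: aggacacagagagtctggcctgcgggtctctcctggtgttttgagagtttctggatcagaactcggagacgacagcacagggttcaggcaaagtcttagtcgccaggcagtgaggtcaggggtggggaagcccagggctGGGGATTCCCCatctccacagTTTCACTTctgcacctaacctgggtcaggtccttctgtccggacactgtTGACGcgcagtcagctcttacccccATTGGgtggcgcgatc
H2-D1: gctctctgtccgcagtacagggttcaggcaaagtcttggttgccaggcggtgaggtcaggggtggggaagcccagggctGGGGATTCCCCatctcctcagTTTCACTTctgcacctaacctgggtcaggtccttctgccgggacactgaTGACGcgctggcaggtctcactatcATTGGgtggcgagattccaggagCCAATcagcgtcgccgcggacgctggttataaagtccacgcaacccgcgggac
B2m: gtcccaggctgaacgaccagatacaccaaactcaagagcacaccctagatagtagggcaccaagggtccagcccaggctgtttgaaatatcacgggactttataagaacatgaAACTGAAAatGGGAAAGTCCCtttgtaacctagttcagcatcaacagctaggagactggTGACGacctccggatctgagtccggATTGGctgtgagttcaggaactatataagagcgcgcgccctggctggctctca
In H2-K1 and H2-D1 the kappa B element lay upstream of an IRF element read on the minus strand, and in B2m it lay downstream of an IRF element read on the plus strand. The H2-K1 and H2-D1 stretches were 87.4% identical over 190 aligned bases. An IRF element was in 3 of the 8 members, as in 21.3% of 32851 RefSeq promoters over the same 250 bases, a kappa B element in 3 (17.6%), the CRE core in 5 (17.8%) and a CCAAT box in 6 (33.8%). The Tap1 and Psmb9 stretches overlap, so their CRE core and CCAAT box are the same sites, counted for both genes. A GAS element (TTCNNNGAA) was in 1, Psmb8 (7.02%). A match describes the letters and not a bound site.

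**Figure D3:**
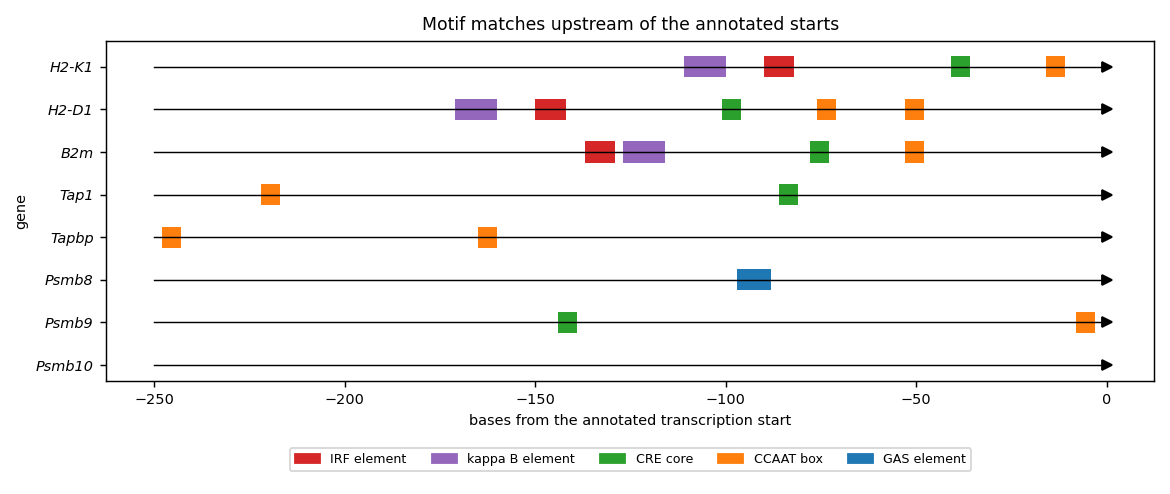
Motif matches (coloured boxes) upstream of the annotated start of the 8 genes with a RefSeq promoter (y axis), by distance in bases from the start (x axis). H2-K1, H2-D1 and B2m each hold an IRF element, a kappa B element, a CRE core and a CCAAT box within 250 bases, and Psmb10 holds none of the 5 motifs.

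Tap1 and Psmb9 start back to back, and their levels moved in opposite directions in both first LPS responses. Tap1 encodes a subunit of the peptide transporter, and Psmb9 the inducible beta 1i subunit of the proteasome. Tap1 was at 55.1, 54.1, 43.9, 46.9 and 45.7 CPM in PP and at 66.0, 42.8, 89.4 and 73.3 CPM in PL. PL replicate 2 was below every PP library and the other 3 were above. The log2 fold change was 0.47 (SE 0.16, adjusted p = 0.0233). It lost its call without PL replicate 3 (0.29, adjusted p = 0.202), PL replicate 4 (0.42, adjusted p = 0.0771) or PP replicate 3 (0.43, adjusted p = 0.0569), and was 0.73 among libraries of 1 sorting day (adjusted p = 0.00102).

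Tap1 was at 43.7, 63.4, 48.0, 52.2 and 49.9 CPM in PBP and at 94.8, 89.2, 103, 86.1 and 88.7 CPM in PBL. Every PBL library was above every PBP library. On the log2 scale this was a change of 0.85 (SE 0.15, adjusted p = 1.98e-05), and 0.89 with sorter in the fit (adjusted p = 0.0251).

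After 2 LPS injections Tap1 was at 33.1, 38.8, 26.4, 33.8 and 36.1 CPM in LL, below every library of every other group, and at 72.4, 47.6, 54.1, 46.5 and 68.6 CPM in LBL. LL was lower than PL by -1.01 (SE 0.16, adjusted p = 7.14e-05) and lower than PP by -0.54 (SE 0.15, adjusted p = 0.00565). With sorter in the fit these were -0.96 (adjusted p = 0.173) and -0.49 (adjusted p = 0.385). LBL was lower than PBL by -0.68 (SE 0.15, adjusted p = 0.0032) and higher than LL by 0.77 (SE 0.15, adjusted p = 0.00385), and groups overlapped in neither. PBL was higher than PL by 0.44 (SE 0.16, adjusted p = 0.0406), a call that was lost when any of 7 libraries was left out (adjusted p up to 0.208).

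Psmb9 was at 92.6, 79.2, 71.7, 80.6 and 74.2 CPM in PP and at 53.0, 46.3, 59.1 and 58.0 CPM in PL, with every PL library lower. The log2 fold change was -0.56 (SE 0.15, adjusted p = 0.00419), and -0.44 among libraries of 1 sorting day (adjusted p = 0.0902). Psmb9 was at 95.7, 71.9, 75.2, 75.5 and 58.6 CPM in PBP and at 43.7, 49.9, 46.4, 35.7 and 47.4 CPM in PBL, again without overlap. PBL against PBP gave -0.76 (SE 0.14, adjusted p = 3.97e-05). Against PBP replicate 5 alone, the 1 PBP library from the same sorter and day, the difference was -0.41 (adjusted p = 0.336). That fit takes the lone library to vary like those of PBL, LL and LBL.

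The ratio of Tap1 to Psmb9 CPM was 0.618 ± 0.039 in PP (SD, n = 5), 0.704 ± 0.173 in PBP (n = 5), 1.24 ± 0.242 in PL (n = 4), 2.09 ± 0.259 in PBL (n = 5), 0.652 ± 0.168 in LL (n = 5) and 1.26 ± 0.392 in LBL (n = 5). It was above the PP range in every PL, PBL and LBL library, while LL overlapped PP. The stretch between the 2 starts is shown because both genes are read from it in opposite directions. It holds 225 bases at chr17:34187331-34187555 (GRCm38.p6), printed on the plus strand, the strand of Tap1, with matches to the CCAAT box and the CRE core in capitals.
Tap1-Psmb9: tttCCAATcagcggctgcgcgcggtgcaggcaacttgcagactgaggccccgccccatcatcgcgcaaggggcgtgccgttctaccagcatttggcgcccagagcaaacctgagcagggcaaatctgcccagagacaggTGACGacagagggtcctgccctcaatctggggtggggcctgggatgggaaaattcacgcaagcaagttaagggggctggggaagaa
In the GENCODE M21 annotation these 2 genes overlap on opposite strands. The strand setting of the counting is not given in the sources used here, so reads of the overlap may be missing from both or counted for either.

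**Figure D4:**
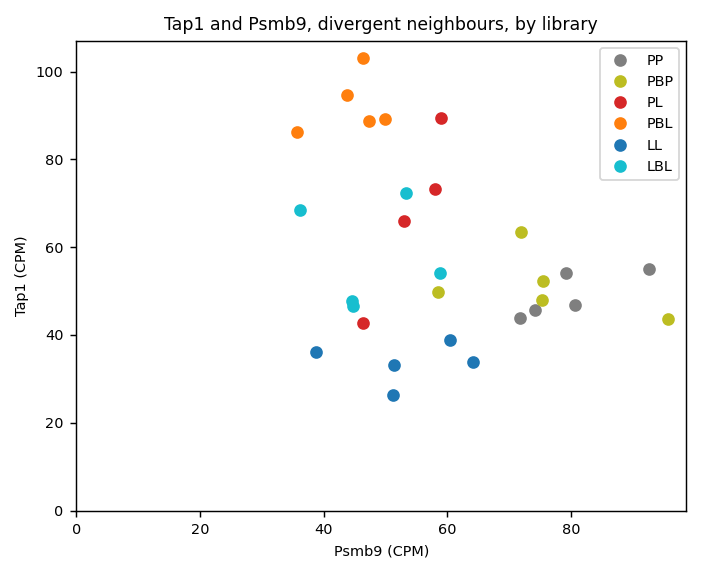
Tap1 (y axis) against Psmb9 (x axis), both in CPM from 0, with 1 point per library coloured by group. PBL libraries lie at high Tap1 and low Psmb9, and PP libraries at 71.7 to 92.6 CPM of Psmb9.

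Tap2, the other subunit of the transporter, did not follow Tap1. It was at 104, 138, 117, 122 and 129 CPM in PP, at 96.0, 121, 112 and 87.1 CPM in PL, at 122, 152, 146, 185 and 125 CPM in PBP and at 93.4, 109.6, 102, 82.9 and 127 CPM in PBL. PL overlapped PP (-0.23, SE 0.15, adjusted p = 0.286), and PBL was lower than PBP (-0.50, SE 0.14, adjusted p = 0.00514). Tap2 was at 101, 125, 94.3, 59.2 and 75.1 CPM in LL and at 119.7, 122, 134, 117 and 132 CPM in LBL. LL was lower than PP (-0.42, SE 0.14, adjusted p = 0.0231), a call lost without PP replicate 2 or LL replicates 4 or 5. LBL was higher than LL by 0.46 (SE 0.14, adjusted p = 0.117), not called here but called by DESeq2 (0.48, adjusted p = 0.0331).

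Tapbp encodes tapasin, which holds the empty class I molecule at the transporter. It was at 591, 592, 541, 610.2 and 509.7 CPM in PP and at 419.5, 514, 474 and 447 CPM in PL, overlapping only in PL replicate 2. On the log2 scale this was a change of -0.29 (SE 0.12, adjusted p = 0.0569). It was called by limma (-0.30, adjusted p = 0.0479), with sorter in the fit (adjusted p = 0.0388), with the replicate block (adjusted p = 0.0289) and in a fit of only these groups (adjusted p = 0.0375). Among libraries of 1 sorting day it was not called (-0.30, adjusted p = 0.155). Tapbp was at 497, 628, 633, 659 and 469.7 CPM in PBP and at 459, 490.1, 464, 385 and 501 CPM in PBL, where the low PBP libraries 1 and 5 overlapped PBL. PBL against PBP gave -0.33 (SE 0.11, adjusted p = 0.0146), and -0.03 with sorter in the fit (adjusted p = 0.95).

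Tapbp was at 432, 472, 367, 358 and 312 CPM in LL, below every PP library. LL against PP gave -0.55 (SE 0.11, adjusted p = 0.000197), and -0.19 with sorter in the fit (adjusted p = 0.677). In LBL it was at 469, 496, 469.6, 374 and 502 CPM. LBL against PBP gave -0.32 (SE 0.11, adjusted p = 0.025), and -0.02 with sorter in the fit (adjusted p = 0.968).

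Psmb8 encodes the inducible beta 5i subunit, which cuts after hydrophobic residues, and Psmb10 the inducible beta 2i subunit. Psmb8 was at 265, 262, 294, 280.1 and 269 CPM in PP and at 221, 219, 223 and 238 CPM in PL, without overlap. The log2 fold change was -0.28 (SE 0.10, adjusted p = 0.0281), a call lost without PP replicates 3 or 4 or PL replicate 2 (adjusted p up to 0.0686) and among libraries of 1 sorting day (-0.24, adjusted p = 0.173). Psmb8 was at 277, 258, 271, 240.3 and 199 CPM in PBP and at 203, 177, 184, 158 and 165 CPM in PBL. PBP replicate 5 was the only PBP library within the PBL range. PBL against PBP gave -0.49 (SE 0.09, adjusted p = 4.73e-05), and -0.17 with sorter in the fit (adjusted p = 0.519). The RefSeq stretch upstream of Psmb8 is shown for its GAS element, the interferon gamma response motif, which no other member's stretch held, in capitals. It lies at chr17:34197945-34198194 (GRCm38.p6) on the plus strand.
Psmb8: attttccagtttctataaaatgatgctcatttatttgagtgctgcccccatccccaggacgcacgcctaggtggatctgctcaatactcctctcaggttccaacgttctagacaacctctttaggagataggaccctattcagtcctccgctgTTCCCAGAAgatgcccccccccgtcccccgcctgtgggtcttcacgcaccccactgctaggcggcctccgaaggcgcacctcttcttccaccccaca

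Psmb10 was at 151, 139, 164, 144 and 129 CPM in PP and at 142, 118, 132 and 125 CPM in PL, which overlapped (adjusted p = 0.23). It was at 134, 137, 151, 125.97 and 104 CPM in PBP and at 93.7, 103, 86.2, 86.8 and 87.8 CPM in PBL, with every PBL library lower. PBL against PBP gave -0.51 (SE 0.09, adjusted p = 3.96e-05), and -0.18 with sorter in the fit (adjusted p = 0.501). The responses of PBL and PL differed by -0.35 (SE 0.14, adjusted p = 0.292), and by -0.45 without PBP replicate 5 (adjusted p = 0.0413).

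After 2 LPS injections Psmb8 was at 241, 201, 194, 232 and 192 CPM in LL and at 185, 159.8, 187, 183 and 187 CPM in LBL, without overlap. Psmb10 was at 129, 129, 119.9, 135 and 113 CPM in LL and at 96.7, 99.5, 97.6, 97.2 and 108 CPM in LBL, also without overlap. These differences, -0.23 for Psmb8 (SE 0.09, adjusted p = 0.238) and -0.33 for Psmb10 (SE 0.09, adjusted p = 0.0708), were not called, while Psmb10 was called by DESeq2 (-0.31, adjusted p = 0.0192) and by edgeR with sorter in the fit (-0.33, adjusted p = 0.0342). LL and LBL share a sorter but differ in their share of sorting days. With sorting day in the edgeR fit, Psmb10 was at -0.23 (adjusted p = 0.311) and Psmb8 at -0.16 (adjusted p = 0.538), neither called. Psmb9 was at 51.4, 60.5, 51.3, 64.2 and 38.8 CPM in LL and at 53.3, 44.6, 58.8, 44.7 and 36.2 CPM in LBL, which overlapped. In PBL against PL, Psmb8 was lower by -0.35 (SE 0.10, adjusted p = 0.0117) and Psmb10 by -0.50 (SE 0.10, adjusted p = 0.00104). With sorter in the fit these were 0.05 and -0.10, neither called.

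None of Psmb8, Psmb9 and Psmb10 was called in LL against PL or LBL against PBL. The 95% intervals were -0.29 to 0.11, -0.33 to 0.28 and -0.25 to 0.16 in LL against PL, and -0.16 to 0.22, -0.20 to 0.38 and -0.07 to 0.32 in LBL against PBL. Against the saline groups, LL had 1 member higher, Nlrc5 (18.9% of all tested genes), and 5 lower, Tap1, Tap2, Tapbp, Psmb8 and Psmb9 (13.2%), relative to PP. LBL had Nlrc5 higher (14.6% of all tested genes) and Tapbp, Psmb8, Psmb9 and Psmb10 lower (13.6%) relative to PBP. With sorter in the fit no member was called in either of these comparisons. The 2 tests of a difference between effects called none of the 10 members in edgeR (0% and 0.0241% of all tested genes). In the first, of the LPS response between repopulated and original microglia, 1 member had an unadjusted p under 0.05. In the second, of the effect of earlier LPS between them, 2 members did, and DESeq2 and limma called none in either.

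In PBL against PBP, where 21.5% of all tested genes rose and 21.5% fell, genes on the other strand moved with some of these members. Gm20496, annotated as antisense over Tap2 and Psmb8, averaged 164 ± 10.3 CPM (SD, n = 5) for PP, 139 ± 13.2 in PL (n = 4), 154 ± 19.8 in PBP (n = 5) and 105 ± 15.5 in PBL (n = 5), and changed by -0.55 in PBL against PBP (SE 0.10, adjusted p = 5.04e-05). Gm19412, antisense over Tapbp, changed by -0.62 in that comparison (SE 0.19, adjusted p = 0.00885). 9330175E14Rik, on the opposite strand of Nlrc5 and at 40 counts or fewer, changed by 3.25 in it (SE 0.64, adjusted p = 9.28e-05). PBL and PBP lie on different sorters except for PBP replicate 5. In PL against PP, within 1 sorter, Gm20496 (-0.235, SE 0.109, adjusted p = 0.113) and Gm19412 (-0.35, SE 0.201, adjusted p = 0.211) were not called. 9330175E14Rik was called there (3.765, SE 0.687, adjusted p = 6.02e-05). Reads of these pairs cannot be told apart without the strand setting.

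The standard proteasome carries Psmb5, Psmb6 and Psmb7 in the places that Psmb8, Psmb9 and Psmb10 take in the immunoproteasome. The log2 ratio of Psmb9 to Psmb6 CPM was -1.18 ± 0.156 in PP (SD, n = 5), -1.97 ± 0.209 in PL (n = 4), -0.996 ± 0.207 in PBP (n = 5), -1.71 ± 0.317 in PBL (n = 5), -1.77 ± 0.268 in LL (n = 5) and -1.52 ± 0.311 in LBL (n = 5). It was lower in every PL library than in every PP library, by 0.79, and in every PBL than in every PBP library, by 0.71 (exact two-sided permutation tests, adjusted p = 0.0476 for both). Every LL library was also lower than every PP library (-0.59), and LBL was lower than PBP with overlap (-0.53). Both had an adjusted p of 0.0476 in the same permutation tests. The smallest unadjusted p these designs allow is 0.0159 for 5 against 4 libraries and 0.00794 for 5 against 5. PL and PP share a sorter. LL and PP differ in sorter, PBL and LBL differ in it from PBP except for PBP replicate 5, and the permutation tests hold no sorter term. Psmb6 itself changed by 0.23 in PL against PP (SE 0.11, adjusted p = 0.125), so that the inducible subunit fell and its counterpart was not called.

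The log2 ratio of Psmb8 to Psmb5 was 3.22 ± 0.296 in PP (SD, n = 5), 3.24 ± 0.156 in PBP (n = 5) and between 2.83 and 2.91 on average in the 4 groups with LPS. It was lower in PBL than in PBP by 0.34, in LL than in PP by 0.39 and in LBL than in PBP by 0.34 (exact permutation tests, adjusted p = 0.0476 for each). The difference of PL from PP, which share a sorter, was -0.33 (exact permutation test, adjusted p = 0.195). Each of the called comparisons crosses the sorters, and the permutation tests hold no sorter term. With sorter in the edgeR fit, Psmb8 itself changed by -0.17, 0.02 and -0.15 in them, and none was called. Psmb10 to Psmb7 was 1.08 ± 0.033 in PP (SD, n = 5), 1.32 ± 0.204 in PBP (n = 5), 0.855 ± 0.196 in PL (n = 4), 0.957 ± 0.119 in PBL (n = 5), 1.12 ± 0.211 in LL (n = 5) and 1.09 ± 0.282 in LBL (n = 5). It was higher in PBP than in PP by 0.24 and lower in PBL than in PBP by 0.36 (exact permutation tests, adjusted p = 0.0476 for both). In PBP against PP, edgeR called neither Psmb10 itself (-0.15, SE 0.09, adjusted p = 0.545) nor Psmb7 (-0.39, SE 0.12, adjusted p = 0.131). The ranges of this ratio in PBP and PP overlapped, and its call was lost when any of the 10 libraries was left out. PL against PP (-0.22, exact permutation test, adjusted p = 0.0857), LL against PP (0.04, exact permutation test, adjusted p = 0.82) and LBL against PBP (-0.23, exact permutation test, adjusted p = 0.337) were not called. Over 27 tests 9 were called, all at the same adjusted p of 0.0476, and leaving out 1 library left between 0 and 9 of them. Psmb5 shared 24.9% of its stretches of 100 bases with other genes, mostly Gm3375.

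**Figure D5:**
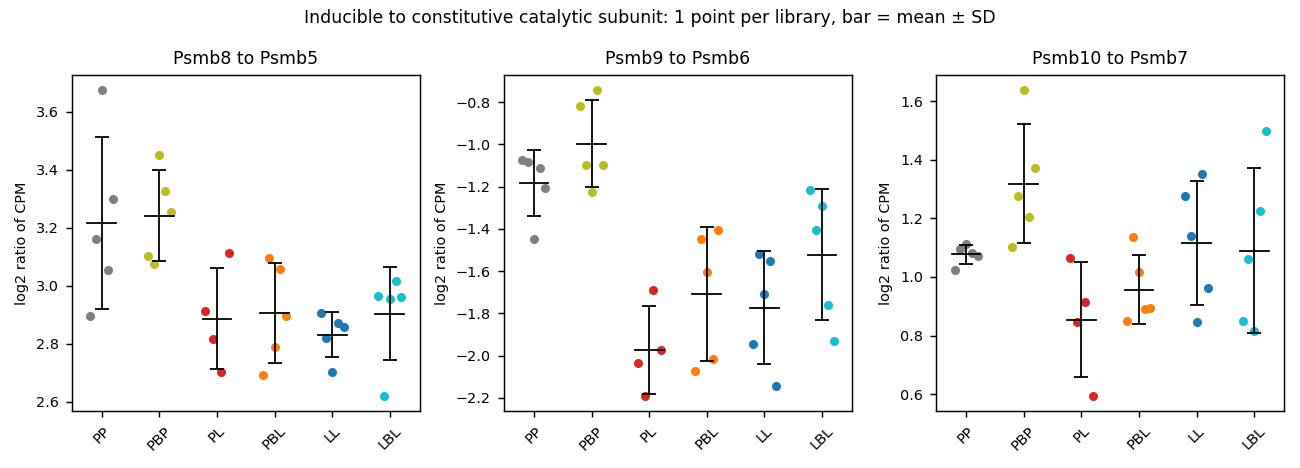
Log2 ratio of the inducible to the constitutive catalytic subunit (y axis) in each library by group (x axis), with mean ± SD as bars. Psmb9 to Psmb6 lies between -1.45 and -0.74 in the 10 libraries without LPS and at or below -1.21 in the 19 libraries with LPS.

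Most of the listed regulators of class I transcription rose with LPS. Of 20 tested regulators 13 rose and 1 fell in PL against PP (14.2% and 11.9% of all tested genes), with a median log2 fold change of 0.61. In PBL against PBP 13 rose and 3 fell (21.5% and 21.5% of all tested genes), with a median of 0.77. Irf1, an interferon regulatory factor that binds class I promoters, rose by 2.08 in PL against PP (SE 0.18, adjusted p = 1.71e-11) and by 2.21 in PBL against PBP (SE 0.17, adjusted p = 1.25e-12). Relb and Nfkb2, subunits of NF-kB, rose by 2.67 (SE 0.35) and 2.47 (SE 0.26) in PL against PP.

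In mice with earlier LPS, 8 of the 20 regulators were lower and none higher in LL against PL (2.03% of all tested genes lower), and 8 were lower and none higher in LBL against PBL (4%). LL and PL differ in sorter, and with sorter in the fit the calls over all genes in that comparison went from 463 to 11. Irf1 was lower by -1.58 in LL against PL (SE 0.18, adjusted p = 1.4e-06) and by -1.47 in LBL against PBL (SE 0.17, adjusted p = 2.31e-07). Irf1 averaged 51.5 ± 4.36 CPM (SD, n = 5) for PP, 217 ± 72.6 in PL (n = 4) and 72.9 ± 14.6 in LL (n = 5). Ciita, the class II transactivator related to Nlrc5, was at 0.23 to 2.41 CPM over all libraries and was called in no comparison.

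Of 10 tested non-classical and other class I heavy chain genes, only H2-Q4 rose in PL against PP (1.86, SE 0.65, adjusted p = 0.0319). H2-Q4 was low, on average 0.53 CPM in PP and 1.97 CPM in PL. In PBL against PBP H2-Q4 rose (1.94, SE 0.61, adjusted p = 0.00997) and Cd1d1 fell. H2-K2 was lower in LL against PL (-2.82, SE 0.66, adjusted p = 0.011). It had 0 to 12 counts per library in LL and 4 to 63 in PL. The CPM ranges overlapped, and LL and PL differ in sorter. Of 11 peptide loading and trimming genes, 1 rose in each first LPS comparison, Tpp2, a cytosolic peptidase (1.36, SE 0.11, in PL against PP and 1.21, SE 0.10, in PBL against PBP), and 3 fell in PBL against PBP, among them Pdia3 and Tapbpl.

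Among 11 other subunits of the proteasome core, 1 rose in PL against PP (Psma6, 0.74, SE 0.11), and 2 rose and 1 fell in PBL against PBP. Repopulated microglia had 7 of these 11 lower and none higher in PBL against PL (11.1% of all tested genes lower), and 4 lower and none higher in LBL against LL (0.722%), such as Psma7 (-0.53, SE 0.10, adjusted p = 0.0037). Psmb6 was lower in both, by -0.53 (SE 0.11, adjusted p = 0.00158) and -0.41 (SE 0.11, adjusted p = 0.0431). Psme1, a subunit of the proteasome activator, was lower in PBL against PL (-0.38, SE 0.12, adjusted p = 0.0259). PBL and PL differ in sorter, and with sorter in the fit the calls over all genes in that comparison went from 3673 to 3, while LBL and LL share a sorter.

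Across the 29 libraries the members fell into sets by their log2 CPM, given as a description since the libraries share groups, sorters and depth. Psmb8 correlated with Psmb10 (Pearson r = 0.89) and Psmb9 (0.84), and H2-K1 with Tap1 (0.85) and H2-D1 (0.77). Tap2 correlated with Tapbp (0.79) and little with Tap1 (0.08). Nlrc5 correlated with H2-K1 (0.71) and inversely with Psmb8 (-0.81), Psmb10 (-0.80) and Psmb9 (-0.77). Outside the set, the genes most like H2-K1 included Il2rg (0.90), Vcam1 (0.90), Slamf8 (0.88) and Cpd (0.88). Those most like Tap1 included Parp14, Cpd, Slamf8 and Tnip1 (0.82 to 0.83), and those most like Nlrc5 were A930005N03Rik, Ddx24, Hmgb1-ps5, Taf15 and Galnt7 (0.92 to 0.93).

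Markers of other cells differed between the groups. The 8 neutrophil markers summed to 122 to 468 CPM in PBL and to at most 31.0 CPM in any other library, and Ly6g was at 0 in every group but PBL. In PBL replicates 1 to 5 the neutrophil sum was 323, 122, 231, 468 and 449.7 CPM, beside 699, 589, 785, 781 and 632 CPM of H2-K1. The 8 neuron markers summed to 11.3 to 41.1 CPM in the Astrios libraries and to 43.8 to 187 CPM in the XDP libraries, among them PBP replicate 5 at 140.4 CPM. The 7 markers of border-associated macrophages were lower in the B groups, 11.8 to 46.8 CPM, than in the others, 53.9 to 155 CPM. The 10 lymphocyte markers summed to 766 to 946 CPM in PP and 155 to 262 CPM in PBL, with Cd8a at 0 in every group but LBL. The 6 monocyte markers summed to 11.7 to 61.8 CPM in PBL and to at most 23.3 CPM elsewhere. The 7 astrocyte markers summed to 437 to 589 CPM in PP and 383 to 449 CPM in PBP, and to 658 to 1020.2 CPM in the 4 groups with LPS, without overlap. The 5 dendritic cell markers summed to 7.31 to 11.3 CPM in PP, 11.9 to 21.3 CPM in PL, 6.79 to 15.2 CPM in PBP and 8.17 to 25.1 CPM in PBL. The 8 endothelial and pericyte markers summed to at most 19.4 CPM in the B groups and up to 44.7 CPM in PP. The part of these cells in the values of the 10 genes was not tested.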

How the data were processed

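Poly(A) RNA of 29 libraries was sequenced. The deposited table holds the authors' raw read counts by gene, with no normalization, and the authors' sample table gives an RNA quality score and the sorter per library. The submitters' processing notes name FastQC 0.11.9, cutadapt 2.10, TopHat, SAMtools 1.10, Picard 2.13.2, HTSeq 0.11.0 and the build GRCm39. Their role and order, the annotation release and the strand setting are not stated there.

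Counts were analysed in R 4.3.3 with edgeR 4.0.16: filterByExpr by group, which kept 16632 genes, TMM normalization and a robust quasi-likelihood fit of all 6 groups (23 residual degrees of freedom, common biological coefficient of variation 0.26). P-values were adjusted by Benjamini-Hochberg over all 16632 genes, with a threshold of 0.05. Standard errors are the log2 fold change divided by the square root of F. CPM (counts scaled to a common library total) use TMM library sizes, and correlations log2 CPM with a prior count of 2. The 27 subunit ratio tests were exact two-sided permutation tests, adjusted over the 27. The method was tested on simulated data. Depth was 5670450 to 12671476 counts per library, and no 2 libraries of a group agreed within sampling noise (chi-square per degree of freedom 5.47 to 32.45 over 56 pairs).

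The text names the 10 members, the up to 3 called genes of each pathway list with the largest change in size, the constitutive subunits, Psme1, Irf1 and Ciita, and genes among the 5 most like each of Nlrc5, Tap1 and H2-K1. Some genes that this rule names are not reported here. The members and lists were chosen with earlier results of these data known. Replicate numbers did not pair the samples. Alternatives were DESeq2 1.42.0, limma 3.58.1 (voom), RLE normalization, no filter on low counts, a prior count of 0.5, only the groups compared, a replicate block, sorter in the fit, libraries of 1 sorting day, each library left out and, added after seeing the data, XDP libraries alone and sorting day in the fit.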

Additional observations from a re-analysis of the deposited data

Results flagged for a closer look

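Of 60 sets of values, 1 gene in 1 group each, 5 held a library whose distance from the nearest other was a large share of the whole range of its group, where chance gives about 1 in 20. H2-K1 was at 389 CPM in LL replicate 5, and at 287 to 310.1 CPM in the other LL libraries. Nlrc5 was at 10.1 CPM in LL replicate 4, and at 6.13 to 7.12 CPM in the others. In LBL, Tapbp was at 374 CPM in replicate 4 and at 469 to 502 CPM in the others. Psmb8 was at 159.8 CPM in LBL replicate 2 and at 183 to 187 CPM in the others, and Psmb10 at 108 CPM in LBL replicate 5 and at 96.7 to 99.5 CPM in the others.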

How the results depend on the processing

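Sorter and group overlap, so a sorter term rests on PBP replicate 5. With it, the members called went from 8 to 5 in PBL against PBP (3 kept, H2-D1 and B2m added), from 4 to 0 in LL against PL, from 5 to 0 in PBL against PL, from 6 to 0 in LL against PP, from 5 to 0 in LBL against PBP, from 0 to 1 in PBP against PP, from 5 to 7 in PL against PP (B2m and Tapbp added) and from 3 to 4 in LBL against LL (Psmb10 added). Values changed sign in LL against PL (H2-D1 0.0884, B2m 0.0153, Tapbp 0.11), PBL against PL (Psmb8 0.0451, Psmb9 0.16), LL against PP (H2-D1 0.28, Psmb8 0.0213, Psmb10 0.19), LBL against PBP (Tap2 0.0003), the difference of LPS responses (Psmb8 0.11, Psmb9 0.16) and the difference of earlier LPS effects (H2-D1 -0.18, B2m -0.20, Tapbp -0.10). XDP libraries alone, chosen after seeing the data, gave 3 members in PBL against PBP and 0 in LBL against PBP. The cause was not tested.

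DESeq2 called 2 members in PBP against PP and 5 in LBL against LL, and RLE normalization and a fit of only the groups compared called 1 each in PBP against PP. With 1 library left out, the members called ranged from 3 to 6 in PL against PP, 7 to 8 in PBL against PBP, 2 to 4 in LL against PL, 3 to 3 in LBL against PBL, 0 to 1 in PBP against PP, 4 to 6 in PBL against PL, 2 to 4 in LBL against LL, 5 to 7 in LL against PP, 4 to 5 in LBL against PBP and 0 to 1 in the difference of LPS responses. Nlrc5 in LL against PL ranged from -0.62 to 0.0433, the latter without PL replicate 3. The subunit ratio calls ranged from 0 to 9, since fewer libraries raise the smallest p possible.

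The replicate numbers did not pair the samples (correlations of same-numbered libraries -0.31 to 0.29). With a replicate block the members called were 6 in PL against PP, 8 in PBL against PBP, 4 in LL against PL, 3 in LBL against PBL and 4 in PBL against PL. Tapbp was then called in PL against PP (-0.32, adjusted p = 0.0289) and Tap1 lost in PBL against PL (0.43, adjusted p = 0.0634), and no other call of a member changed.

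Over all genes, calls went from 7163 to 2224 with sorter in the fit and to 2083 in XDP libraries alone in PBL against PBP, from 463 to 11 in LL against PL, from 3673 to 3 in PBL against PL, from 201 to 330 in LBL against LL, from 5340 to 1181 in LL against PP and from 4684 to 1609 (XDP alone 1473) in LBL against PBP. DESeq2 called 717 genes in LL against PL, 276 in PBP against PP (88 in edgeR), 430 in LBL against LL, and 63 and 31 in the 2 differences of effects (0 and 4 in edgeR). Without a low-count filter LBL against LL had 62 higher and 64 lower (81 and 120 with it), and the differences 11 and 0. The differences had 1 and 0 with RLE, 2 and 1 with the block, 0 in the second with limma and 35 in the second in a fit of only the groups compared. The difference of LPS responses had up to 740 calls without PBP replicate 5. Other libraries left out gave as few as 49 in PBP against PP (PP replicate 1), 276 in LL against PL (PL replicate 1), 2326 in PBL against PL (PBL replicate 4), 669 in LBL against PBL (LBL replicate 2, from 1121) and 85 in LBL against LL (LL replicate 4), and 0 to 23 in the second difference (23 without PL replicate 3). Counts of 14 to 205 reads limit the precision for Nlrc5.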
